A study of Rattus norvegicus with 9 samples.

Results

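Proteasome subunit genes encode the 26S proteasome, the protease complex that degrades ubiquitin-tagged proteins, together with its activators, its inhibitor and its assembly chaperones. They were followed in the liver of male Wistar rats 24 h after total-body irradiation (TBI). The genes were chosen by symbol: every RefSeq-named symbol made of Psm, a letter from a to f and a number was taken, except the immunoproteasome genes Psmb8, Psmb9 and Psmb10. A gene also needed a probe that the scanner software marked well above background in every rat (3 of 3) of 1 or more groups. The rule found 41 symbols with a named probe, of which 40 passed the background filter, out of 9604 named genes that passed it. The symbol that did not pass was Psma8, the alpha subunit known from the testis, which was below background in every group. Psmb11, the thymus-specific beta subunit, and Psmd11, a subunit of the regulatory lid, had no named probe and were not analysed here. Of the 40 genes, 38 belong to the proteasome or its helpers. The other 2, Psmc3ip and Psme3ip1, encode proteins named for binding a subunit, and the counts over 40 genes below include them.

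Each group held 3 rats, with 1 one-colour array per rat. Control rats were not irradiated (0 Gy), TBI rats received 6.5 Gy from a 60Co source at 2 Gy/min, and HSC + TBI rats were given Hong Shan Capsule (HSC), a herbal drug, by stomach tube on 3 days before the same 6.5 Gy. The HSC dose was 30 mg/kg/day in the sample labels and 10 g/kg/day in the design text, and it entered no calculation. No group analysed here received HSC without irradiation. For rats given 6.5 Gy, the study describes water on those days in place of HSC. The comparisons ask whether irradiation changed these mRNAs in the liver and whether they differed after HSC.

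The catalytic core of the proteasome is the 20S barrel, made of outer alpha rings that gate entry and inner beta rings that carry the proteolytic sites. The 19S regulatory particle caps the barrel. Its base holds a ring of ATPases that unfolds substrates, and its lid holds the enzyme that removes ubiquitin. Nfe2l1 and Nfe2l2 (Nrf2) are transcription factors known to act on proteasome genes through antioxidant response elements, and liver cells carry many proteasomes because the liver makes and turns over much protein.

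Stretches of promoter are shown from 2 sets of genes. The response element is shown because the mRNA of Nfe2l2 was higher after irradiation, as given below. The CCAAT box is shown because it is a common promoter motif. It was found in 18 of 34 proteasome gene promoters, so holding it does not set the genes with the extreme differences apart. The sequences are from RefSeq (GRCr8), on the strand of the gene, with the motif in capitals. The first 4 hold the core of the antioxidant response element, TGACNNNGC or its reverse complement, in genes of the 20S barrel. They lie at chr6:95219727-95219755 for Psma3 on the plus strand, chr5:144254980-144255008 for Psmb2 on the plus strand, chr15:32047421-32047449 for Psmb5 on the minus strand and chr10:55737854-55737882 for Psmb6 on the plus strand. The last 2 hold a CCAAT box, the site bound by NF-Y, in the genes with the lowest and highest differences after TBI, Psmf1 at chr3:160720993-160721017 and Psmd7 at chr19:52411425-52411449, both on the minus strand.
Psma3: tctgtggcctGCCGGGTCAgcaccatgag
Psmb2: cccgcgccaaTGACCGGGCggtcgcatat
Psmb5: cgtgaagctgTGACGTCGCggcgttgccc
Psmb6: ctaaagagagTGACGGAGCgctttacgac
Psmf1: gctcttcctcATTGGtcccatggcc
Psmd7: agggcaaggcCCAATgacaagtcaa
Promoters from 250 bases before to 50 bases after the start were at hand for 34 of the 38 proteasome genes. TGACNNNGC on either strand was found in 8 of the 34 (23.5%), against 12.1% of all 33469 promoters of that length. CCAAT on either strand was found in 18 of 34 (52.9%), against 37.5% of all promoters. A match in these letters describes the sequence only. Matches of the 2 motifs may overlap, as they do in Psmb2, where a CCAAT box runs into the response element core.

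All values below are log2 signals after quantile normalization over the 9 arrays, and a difference is the difference of 2 group means on that scale. Each gene is represented by its brightest tested probe. The number of arrays, 3 per group, limits the precision. The p-values set a difference between groups against the spread between rats within groups. Between 56.6% and 59.3% of probes were above background in control rats, between 63.6% and 69.5% in TBI rats and between 58.7% and 60.5% in HSC + TBI rats. No slide held arrays of more than 1 group (1 slide for control, 1 for TBI and 2 for HSC + TBI), so that slide and group cannot be told apart. Of the hepatocyte markers, 6 of 6 were above background on all 9 arrays. In whole liver, fewer cells of a type and less RNA per cell cannot be told apart.

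After quantile normalization the mRNAs of the proteasome stayed close to their control level. All 40 genes were above background on all 9 arrays. After TBI, none of the 40 was called by limma at a Benjamini-Hochberg adjusted p under 0.05, against 8.76% of all named genes, and none with at least a 1.5-fold change in addition, against 7.79%. At an unadjusted p under 0.05 there were 3, Psmd7 and Psmd12 higher and Psmf1 lower, against 26.1% of named genes. After HSC + TBI, again none was called against control (4.02% of named genes, and 3.88% with the 1.5-fold minimum), and 5 had an unadjusted p under 0.05 (21.9%). These were Psmd12, higher, and Psmf1, Psme1, Psme2 and Psmc3, lower. Between HSC + TBI and TBI none was called (0.791% of named genes, with or without the 1.5-fold minimum), and Psmd4, lower, was the one gene with an unadjusted p under 0.05 (15% of named genes). The moderated F-test over the 3 groups also called none of the 40, against 7.51% of named genes, with 3 at an unadjusted p under 0.05 (26.9% of named genes). Other settings called up to 8 of the 40 after TBI, the 8 with the slide as a random block, which called 11511 of all 25369 probes, and the calls of the genes described below are given with each gene.

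The differences were small after quantile normalization, and their 95% intervals bound them on that scale only. Intervals under the other scalings were not computed. Under other settings the difference after HSC + TBI reached 0.43 for Psmd12 and 0.37 for Psmb6. The median difference from control over the 40 genes was 0.02 after TBI and 0.01 after HSC + TBI, beside 0.01 and 0.02 over all named genes. After a 75th percentile shift in place of quantiles the medians of the 40 were 0.09 and 0.14, beside 0.04 and 0.06 over all named probes tested. The number above zero went from 24 to 33 of 40 after TBI and from 21 to 32 of 40 after HSC + TBI. The centre of the 40 genes thus depended on the scaling. After quantile normalization the median size of the difference, regardless of sign, was 0.09 in both comparisons, against 0.23 and 0.21 over all named genes. In 36 of 40 genes (90%) the change after TBI was under 1.2-fold, against 55.1% of named genes, and the same held for 36 of 40 after HSC + TBI, against 59.5%. The 95% interval of the change lay wholly within 1.5-fold in either direction for 37 of 40 genes (92.5%) after TBI, against 43.9% of named genes. It did so for 37 of 40 after HSC + TBI, against 47%, and for 40 of 40 between HSC + TBI and TBI, against 52.1%. The genes whose interval reached beyond 1.5-fold were Psmd7, Psme2 and Psmf1 after TBI, and Psme1, Psme2 and Psmf1 after HSC + TBI. Over the 38 proteasome genes alone, the median difference from control was 0.05 after TBI and 0.02 after HSC + TBI. The change was under 1.2-fold in 34 of these 38 in both comparisons.

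**Figure D1:**
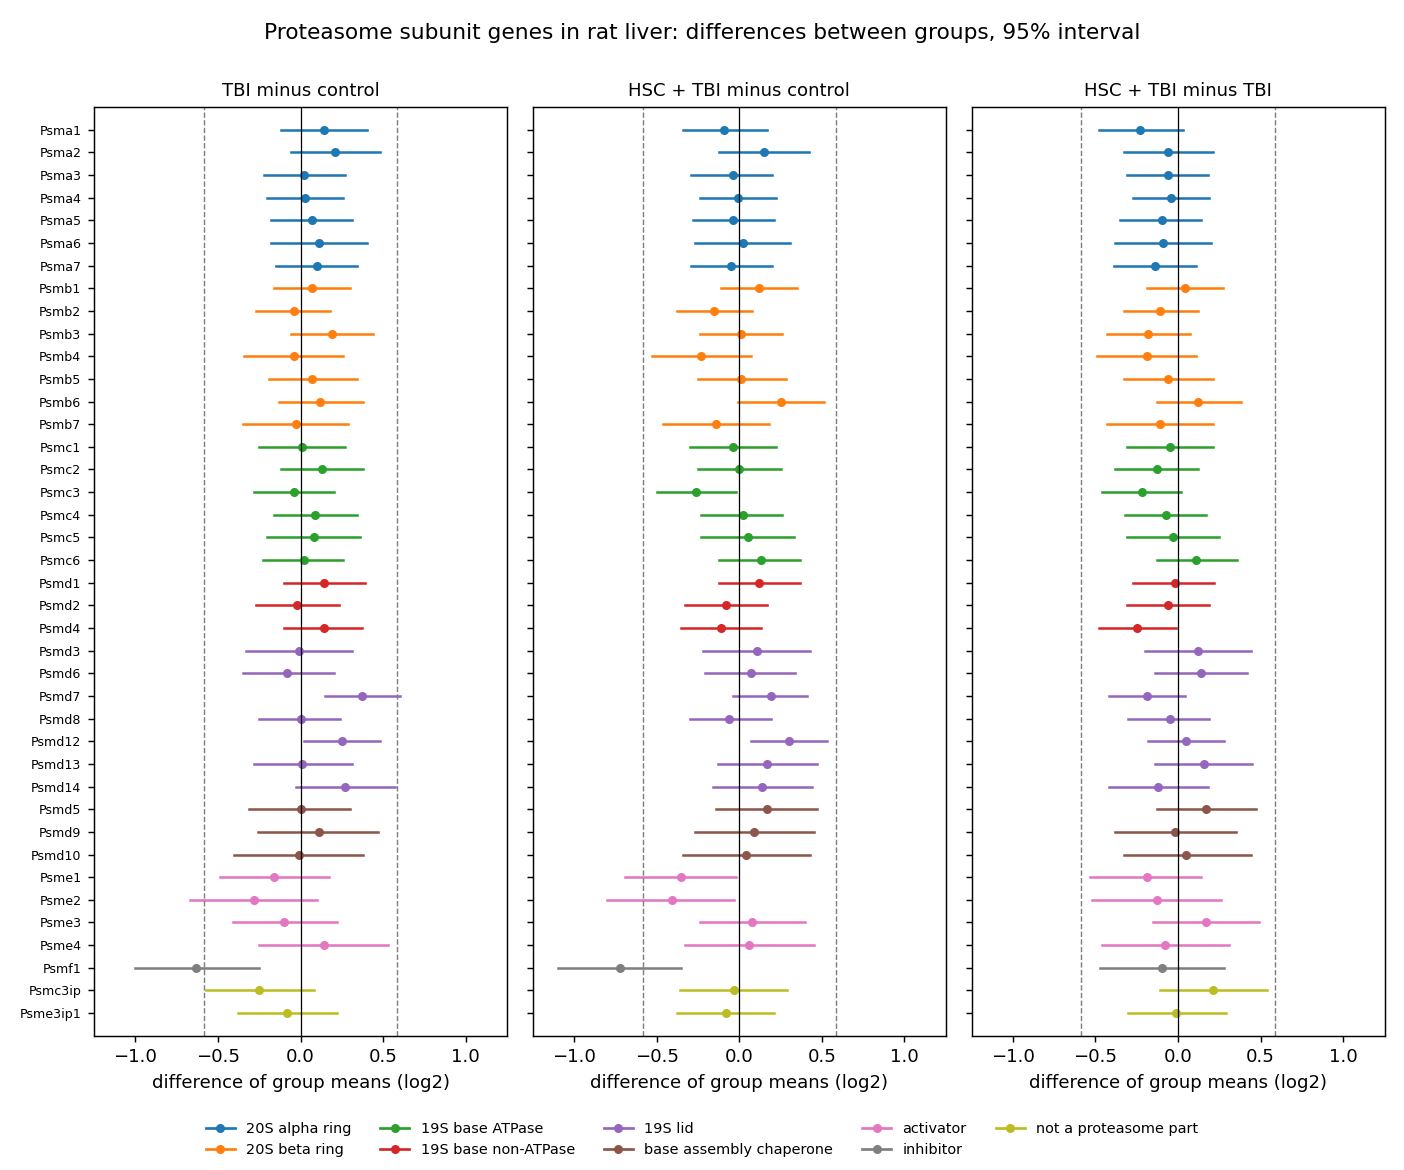
Difference of group means (log2, horizontal axis) for each of the 40 genes (vertical axis, coloured by role), as points with 95% intervals from limma, for TBI minus control, HSC + TBI minus control and HSC + TBI minus TBI; dashed lines mark 1.5-fold. Most points lie within 0.3 of zero, and the inhibitor gene Psmf1 lies farthest from it, at -0.63 and -0.72 against control.

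The rats of a group also differed little from one another in these genes. The median SD within groups was 0.10 (range 0.05 to 0.21), against 0.20 over all named genes. Their probes were bright, with a median mean signal of 11.94 against 8.08 over all named genes, and the part of signal strength in the smaller spread was not tested. Relative to each gene's control mean, the median over the 40 genes was -0.03, 0.01 and 0.03 on the control arrays. It was 0.07, 0.07 and -0.01 on the TBI arrays, and -0.03, -0.01 and 0.06 on the HSC + TBI arrays. The array values of the 3 groups overlapped.

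**Figure D2:**
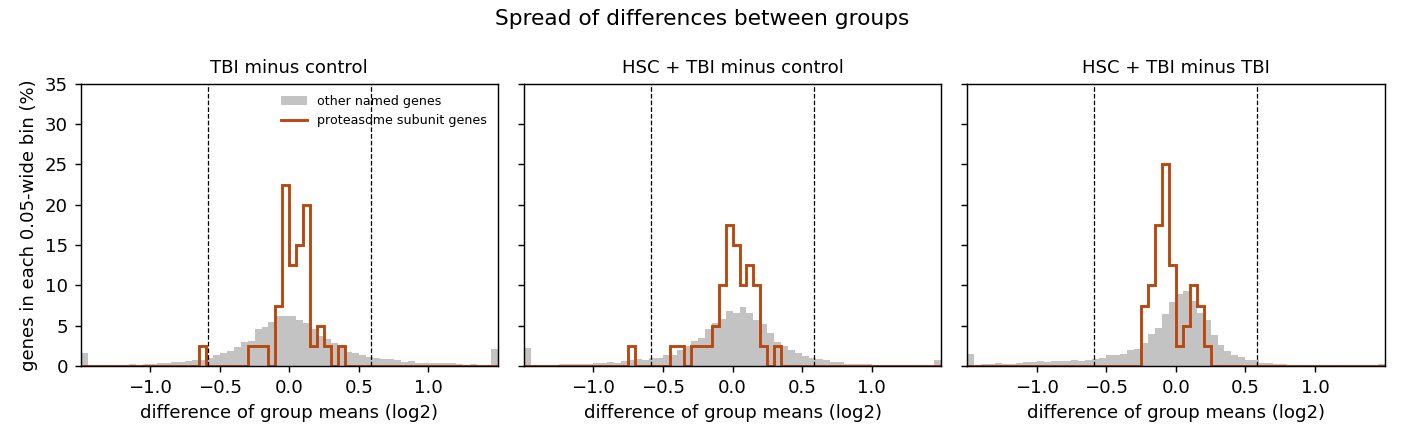
Percent of genes (vertical axis) in bins of the difference of group means (log2, horizontal axis), in each comparison. The orange line holds the 40 genes chosen by symbol, and the grey area all other named genes. Dashed lines mark 1.5-fold, and the outermost bins also hold everything beyond them. The orange line is narrower than the grey area in each panel, with median sizes of 0.09, 0.09 and 0.11 for the 40 genes.

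The 20S alpha ring genes, Psma1 to Psma7, form the gate of the barrel. None was called in any comparison. After TBI their differences ran from 0.02 for Psma3 to 0.21 for Psma2 (adjusted p = 0.302 by limma), and 7 of 7 were above zero, also under a 75th percentile shift, normexp background correction and the authors' normalized values. After HSC + TBI the differences from control ran from -0.09 to 0.15, with 2 of 7 above zero, and 7 of 7 were above zero under the 75th percentile shift. Psma2 was the one alpha gene in which the TBI rats (11.70, 11.62 and 11.65) did not overlap the controls (11.49, 11.26 and 11.59). Psma1 had the largest gap of the ring between the irradiated groups. Its values were 12.12, 12.25 and 12.30 in control rats, 12.26, 12.35 and 12.49 in TBI rats, and 12.05, 12.16 and 12.20 in HSC + TBI rats. Every HSC + TBI rat lay below every TBI rat, with a difference of -0.23 (95% interval -0.48 to 0.03, adjusted p = 0.371 by limma), which was -0.13 after the 75th percentile shift.

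The 20S beta ring carries the proteolytic sites in Psmb5, with chymotrypsin-like activity, Psmb6, with caspase-like activity, and Psmb7, with trypsin-like activity. Psmb5 read 13.49, 13.56 and 13.62 in control rats, 13.72, 13.68 and 13.50 in TBI rats, and 13.54, 13.47 and 13.71 in HSC + TBI rats. The 3 groups overlapped, and the difference from control was 0.07 after TBI (95% interval -0.19 to 0.34) and 0.01 after HSC + TBI (95% interval -0.25 to 0.28).

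Psmb6 read 11.37, 11.36 and 11.31 in control rats, 11.42, 11.58 and 11.40 in TBI rats, and 11.63, 11.45 and 11.70 in HSC + TBI rats. All irradiated rats lay above all controls, by 0.12 in the mean after TBI (95% interval -0.13 to 0.38) and by 0.25 after HSC + TBI (95% interval -0.01 to 0.51, adjusted p = 0.271 by limma). Psmb7 read 11.52, 11.79 and 11.94 in control rats, 11.58, 11.71 and 11.87 in TBI rats, and 11.59, 11.53 and 11.71 in HSC + TBI rats. Its groups overlapped, with differences of -0.03 (95% interval -0.35 to 0.29) and -0.14 (95% interval -0.46 to 0.18) from control.

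Of the structural beta subunits Psmb1 to Psmb4, differences from control lay between -0.04 and 0.19 after TBI and between -0.23 and 0.12 after HSC + TBI, with none called. The 3 catalytic genes are the subunits that Psmb8, Psmb9 and Psmb10 replace in the immunoproteasome.

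The ATPases of the 19S base, Psmc1 to Psmc6, and its scaffold and ubiquitin receptor subunits, Psmd1, Psmd2 and Psmd4, were between -0.04 and 0.14 from control after TBI. Psmc3 was the lowest of the 6 ATPases after HSC + TBI. It read 12.09, 12.11 and 12.09 in control rats, 11.98, 12.17 and 12.01 in TBI rats, and 11.75, 11.83 and 11.93 in HSC + TBI rats. The HSC + TBI rats lay below all others, with a difference from control of -0.26 (95% interval -0.50 to -0.02, adjusted p = 0.22 by limma). After normexp background correction the same difference was -0.28 with an adjusted p of 0.045, and after the 75th percentile shift it was -0.12 with an adjusted p of 0.631.

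Psmd4 encodes a ubiquitin receptor of the base. It read 12.58, 12.61 and 12.71 in control rats, 12.80, 12.84 and 12.67 in TBI rats, and 12.46, 12.57 and 12.54 in HSC + TBI rats. The HSC + TBI rats lay below all others, and their difference from TBI, -0.25 (95% interval -0.48 to -0.01), had an adjusted p of 0.288 by limma. It was -0.16 after the 75th percentile shift.

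The 7 lid genes measured here held the largest positive differences. Psmd7 encodes the partner of the deubiquitinating subunit Psmd14. It read 11.34, 11.34 and 11.33 in control rats, 11.69, 11.73 and 11.72 in TBI rats, and 11.58, 11.58 and 11.41 in HSC + TBI rats. On this brightest probe the TBI rats were all above the HSC + TBI rats, which were all above the controls. The difference after TBI was 0.37 (95% interval 0.15 to 0.60, a 1.30-fold change), with an adjusted p of 0.0556 by limma, just short of the threshold.

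Psmd7 passed the threshold after TBI under other settings, among them with adjusted p = 0.0397 after the 75th percentile shift, 0.0194 after normexp, 0.046 in the authors' normalized values and 0.04 without a filter on dim probes. Its spread on this probe was small (SD 0.01 in control and 0.02 in TBI rats). The other 2 probes for Psmd7 gave 0.28 (95% interval -0.02 to 0.58) and 0.11 (95% interval -0.14 to 0.36), so that all 3 were above zero and the size differed between probes. After HSC + TBI the 3 probes gave 0.19, 0.30 and 0.06 against control. Between HSC + TBI and TBI they ran from -0.19 to 0.02, so not every probe was lower after HSC + TBI.

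Psmd14, the deubiquitinating enzyme itself, read 8.76, 9.01 and 8.81 in control rats, 8.97, 9.23 and 9.18 in TBI rats, and 8.93, 8.91 and 9.17 in HSC + TBI rats. The groups overlapped, and the differences from control were 0.27 (95% interval -0.03 to 0.57) and 0.14 (95% interval -0.16 to 0.44). Psmd12, a lid scaffold subunit, read 11.33, 11.41 and 11.35 in control rats, 11.58, 11.55 and 11.70 in TBI rats, and 11.72, 11.60 and 11.66 in HSC + TBI rats. Every irradiated rat was above every control. The differences were 0.25 after TBI (95% interval 0.02 to 0.48, adjusted p = 0.17 by limma) and 0.30 after HSC + TBI (95% interval 0.07 to 0.53, adjusted p = 0.149). The remaining lid genes Psmd3, Psmd6, Psmd8 and Psmd13 ranged from -0.08 to 0.01 after TBI and from -0.06 to 0.17 after HSC + TBI. Differences of the base assembly chaperones Psmd5, Psmd9 and Psmd10, which help build the ATPase ring, ranged from -0.01 to 0.11 and from 0.04 to 0.17, with none called.

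**Figure D3:**
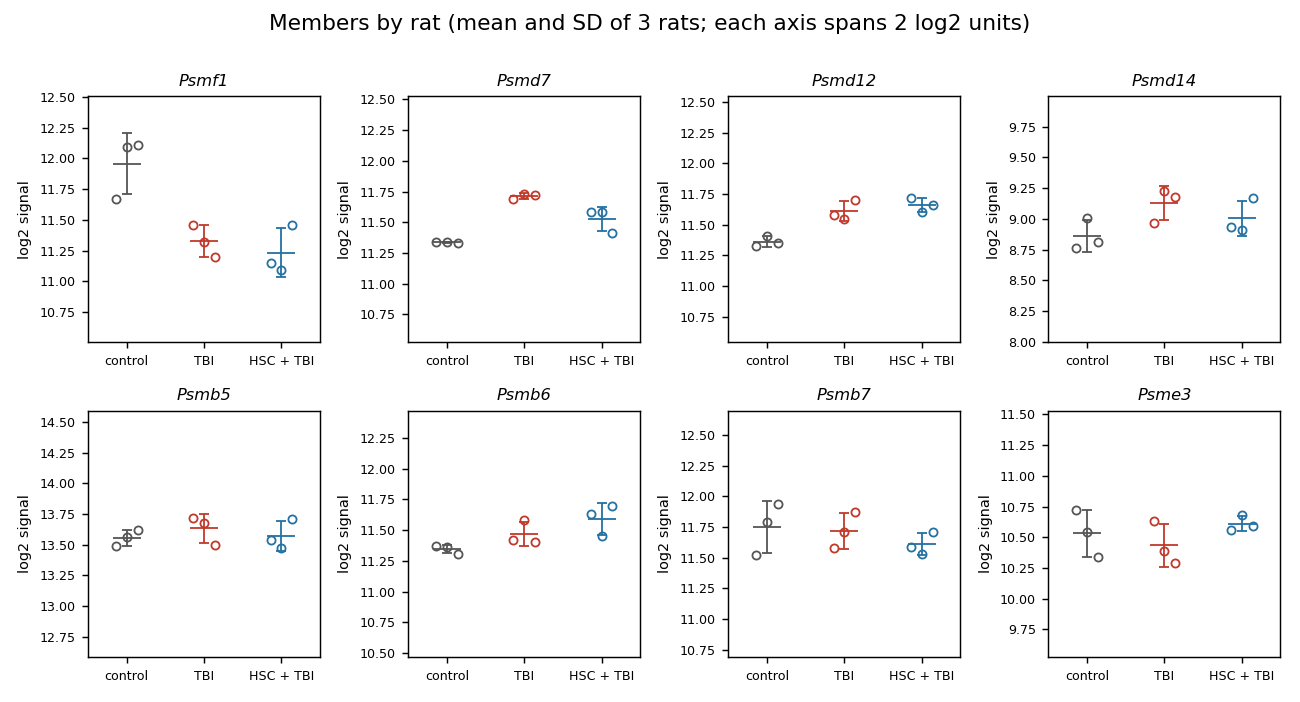
Log2 signal (vertical axis) of each rat (open circles) in control, TBI and HSC + TBI groups (horizontal axis) for Psmf1, 3 lid genes, the 3 catalytic beta genes and the activator Psme3; bars are means with SD of 3 rats, and each vertical axis spans 2 log2 units. All irradiated rats lie below the controls in Psmf1, and above them in Psmd7, Psmd12 and Psmb6.

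Psmf1 had the largest difference from control of the 40 genes in both irradiated groups. It encodes PI31, a protein that inhibits the 20S core in the test tube and takes part in moving and assembling proteasomes in cells. Psmf1 read 11.67, 12.09 and 12.11 in control rats, 11.46, 11.32 and 11.20 in TBI rats, and 11.15, 11.09 and 11.46 in HSC + TBI rats. All 6 irradiated rats lay below the 3 controls. The difference was -0.63 after TBI (95% interval -1.0 to -0.25, 0.648-fold of control) with an adjusted p of 0.0523 by limma, and -0.72 after HSC + TBI (95% interval -1.10 to -0.35, 0.606-fold) with an adjusted p of 0.0524. Both missed the threshold narrowly.

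Between HSC + TBI and TBI, Psmf1 differed by -0.10 (95% interval -0.47 to 0.28), with overlapping groups. The calls against control depended on 1 rat and on the filter. Without control replicate 1, the lowest control, Psmf1 passed in both comparisons, at -0.77 (adjusted p = 0.0352) and -0.87 (adjusted p = 0.0284). It also passed in both with probes above background on all 9 arrays (adjusted p = 0.0471 and 0.0441) and after normexp (-0.59 with adjusted p = 0.0455, and -0.72 with adjusted p = 0.0314). Psmf1 had a single probe.

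The activators are caps that open the barrel without ATP. Psme1 and Psme2 encode the PA28 alpha and beta subunits, which are induced by interferon gamma. Psme1 read 12.84, 13.24 and 13.36 in control rats, 12.89, 13.03 and 13.04 in TBI rats, and 12.77, 12.73 and 12.87 in HSC + TBI rats. Control replicate 1 was the low control, and the HSC + TBI rats were all below the TBI rats. Its difference was -0.16 after TBI (95% interval -0.49 to 0.17), and -0.35 after HSC + TBI (95% interval -0.69 to -0.02, adjusted p = 0.231 by limma).

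Psme2 read 12.61, 13.21 and 13.17 in control rats, 12.56, 12.78 and 12.81 in TBI rats, and 12.57, 12.60 and 12.59 in HSC + TBI rats. The HSC + TBI rats lay just below the lowest control, again replicate 1. The difference was -0.28 after TBI (95% interval -0.67 to 0.10) and -0.41 after HSC + TBI (95% interval -0.80 to -0.03, adjusted p = 0.227 by limma). Without control replicate 1 the latter was -0.61 with an adjusted p of 0.049. After the 75th percentile shift the differences after HSC + TBI were -0.20 for Psme1 and -0.27 for Psme2.

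Psme3, the nuclear PA28 gamma, read 10.72, 10.54 and 10.34 in control rats, 10.63, 10.39 and 10.29 in TBI rats, and 10.56, 10.68 and 10.59 in HSC + TBI rats. Its differences from control were -0.10 (95% interval -0.41 to 0.22) and 0.08 (95% interval -0.24 to 0.40). Psme4, which encodes PA200, the activator tied to histone turnover and DNA repair, read 10.88, 10.82 and 10.40 in control rats, 11.00, 10.91 and 10.60 in TBI rats, and 10.62, 10.90 and 10.77 in HSC + TBI rats. The groups of both genes overlapped, and Psme4 differed from control by 0.14 (95% interval -0.25 to 0.53) and 0.06 (95% interval -0.33 to 0.45).

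The interferon-inducible immunoproteasome subunits are given beside PA28. Psmb8 read 11.84, 12.91 and 13.23 in control rats, 11.30, 12.47 and 12.67 in TBI rats, and 11.60, 11.02 and 11.54 in HSC + TBI rats. Psmb9 read 12.81, 13.61 and 13.63 in control rats, 12.43, 13.29 and 13.61 in TBI rats, and 12.03, 11.87 and 12.04 in HSC + TBI rats. Psmb10 read 12.88, 13.76 and 13.45 in control rats, 13.08, 13.55 and 13.15 in TBI rats, and 12.67, 12.91 and 12.94 in HSC + TBI rats. Control replicate 1 was the lowest control in all 3 genes, as in Psme1 and Psme2, and the HSC + TBI rats lay below the controls without overlap in Psmb8 and Psmb9.

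The differences from control after HSC + TBI were -1.27 for Psmb8 (95% interval -2.27 to -0.27, adjusted p = 0.159 by limma), -1.37 for Psmb9 (95% interval -2.10 to -0.64, adjusted p = 0.0584) and -0.52 for Psmb10 (adjusted p = 0.256). After TBI they were -0.52, -0.24 and -0.10, with the smallest adjusted p = 0.498. Single rats moved these, and Psmb8 was at -0.93 without control replicate 1 and at -0.09 without TBI replicate 1. For HSC + TBI against TBI the differences were -0.76 for Psmb8, -1.13 for Psmb9 (95% interval -1.86 to -0.40, adjusted p = 0.15) and -0.42 for Psmb10, and the 2 groups did not overlap in Psmb9 and Psmb10. Without TBI replicate 1 that of Psmb9 was -1.47 (adjusted p = 0.0274). Psmb9 after HSC + TBI passed the threshold under other settings, among them without control replicate 1 (-1.64, adjusted p = 0.0339) and without TBI replicate 1 (adjusted p = 0.0236). Leaving out that TBI rat takes no rat from this comparison. It changes the shared estimate of the spread and the probes that pass the filter.

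Markers of immune cells are set beside these values. Summed signals of 5 of 5 macrophage markers, on the linear scale, ranged from 46000 to 66000 in control rats, from 45300 to 85600 in TBI rats and from 31600 to 34600 in HSC + TBI rats, with none of the 5 called in any comparison. Most of this sum is Clec4f, with a mean log2 signal of 15.25 against 12.80 for Cd68, the next brightest. Between HSC + TBI and TBI the 5 ran from -1.28 for Csf1r to -0.14 for Cd163, the one whose groups overlapped. The 4 T cell markers summed to between 511 and 681 in control rats, between 177 and 359 in TBI rats and between 229 and 338 in HSC + TBI rats, with 1 of 4 above background on all 9 arrays. Cd3g and Cd2 were the T cell genes called. Cd3d, the one above background on all 9 arrays, was not called in any comparison. It differed from control by -0.79 after TBI (adjusted p = 0.148 by limma) and by -0.76 after HSC + TBI (adjusted p = 0.213). Between HSC + TBI and TBI, Cd3d differed by 0.03 (adjusted p = 0.974), and the signal of Cd3g was lower without a call (adjusted p = 0.241). Cd3g fell after TBI by 3.60 (adjusted p = 0.000685 by limma), where 2 of 3 arrays measured it above background. After HSC + TBI no array did, and Cd3g was at least 11.4-fold lower than in control (adjusted p = 0.000297). Cd2 was at least 5.13-fold lower after TBI (adjusted p = 0.00123), with no TBI array above background. Cd2 was called higher after HSC + TBI than after TBI (adjusted p = 0.0306 by limma). Only 1 of 3 HSC + TBI arrays and no TBI array measured it above background, so no fold is given. Between HSC + TBI and control Cd2 was not called (adjusted p = 0.0956). The B cell gene Cd79b, above background in control rats only, was at least 4.97-fold lower after TBI (adjusted p = 0.00317) and at least 2.90-fold lower after HSC + TBI (adjusted p = 0.0026). Such bounds set the bright group's mean against the lowest signal marked well above background on each array of the dim group, or the gene's own signal where higher. The part of these cells in the values of Psme1, Psme2 and the immunoproteasome genes was not tested. The hepatocyte markers summed to between 767000 and 913000 over the 9 arrays, with none of 6 called.

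**Figure D4:**
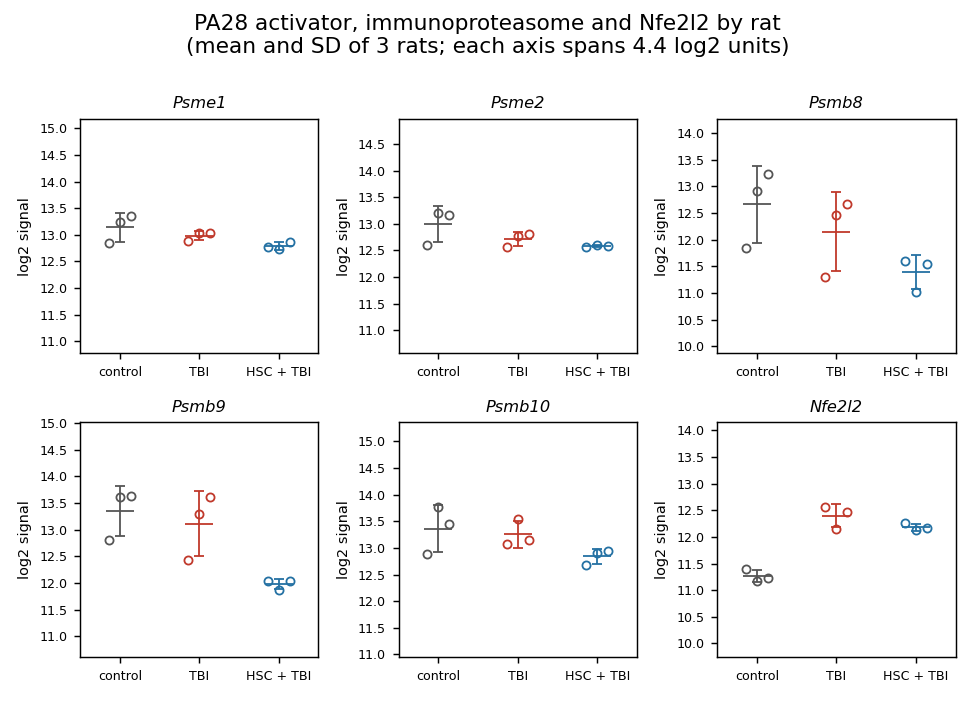
Log2 signal (vertical axis) of each rat (open circles) in control, TBI and HSC + TBI groups (horizontal axis) for the PA28 genes Psme1 and Psme2, the immunoproteasome genes Psmb8, Psmb9 and Psmb10, and the transcription factor gene Nfe2l2; bars are means with SD of 3 rats, and each vertical axis spans 4.4 log2 units. The HSC + TBI rats are lowest in Psmb9, at 11.87 to 12.04, and both irradiated groups lie above the controls in Nfe2l2.

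Between the irradiated groups, the median of the 40 genes was -0.06 for HSC + TBI against TBI, beside 0.02 over all named genes. Of the 40, 11 were above zero and 29 below, a split that was 22 above and 18 below, with a median of 0.02, after the 75th percentile shift. The differences ran from -0.25 for Psmd4 to 0.21 for Psmc3ip, and the change was under 1.2-fold in 40 of 40 genes, against 66.4% of named genes. Psmc3ip, a partner of recombinases in meiosis, read 7.21, 7.18 and 7.06 in control rats, 7.16, 6.78 and 6.76 in TBI rats, and 7.12, 6.98 and 7.25 in HSC + TBI rats. Its groups overlapped.

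Groups without overlap were counted as well. After TBI, 5 of 40 genes had all rats above all controls, against 14.3% of named genes, and 1 had all below, against 15.7%. After HSC + TBI there were 4 above (17.6% of named genes) and 5 below (16.9%). Between HSC + TBI and TBI there were 0 above (10.3%) and 6 below (11%), which were Psma1, Psmc3, Psmc4, Psmd4, Psmd7 and Psme1. With 3 rats against 3, an exact two-sided permutation test of 1 gene cannot go below 0.1.

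Of 39 related genes listed for the pathway, 28 were measured: other 26S partners, assembly factors, shuttle factors that carry ubiquitylated proteins, ubiquitin and its activating enzymes, the factors that drive proteasome transcription, and the immunoproteasome. By limma 1 of 28 was called higher and 0 lower after TBI, the same after HSC + TBI, and 0 in either direction between the irradiated groups, where 3 had an unadjusted p under 0.05.

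The called gene was Nfe2l2 in both. It read 11.40, 11.18 and 11.23 in control rats, 12.56, 12.15 and 12.47 in TBI rats, and 12.26, 12.13 and 12.16 in HSC + TBI rats. All irradiated rats lay above all controls. Nfe2l2 rose by 1.12 after TBI (95% interval 0.81 to 1.43, adjusted p = 0.00309 by limma) and by 0.91 after HSC + TBI (95% interval 0.60 to 1.22, adjusted p = 0.0104). The call after HSC + TBI missed the threshold without control replicate 3 (0.89, adjusted p = 0.0501) and without HSC + TBI replicate 1 (0.88, adjusted p = 0.0566). Nfe2l1 was not among the genes tested here.

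The 8 proteasome genes with TGACNNNGC in their promoter, Psma3, Psmb2, Psmb5, Psmb6, Psmd1, Psmd3, Psmd9 and Psme4, differed from control by between -0.04 and 0.14 after TBI, with a median of 0.09. The 26 without it ranged from -0.63 to 0.37, with a median of 0.01. After HSC + TBI the medians were 0.07 and -0.01. For the CCAAT box the medians after TBI were 0.03 in the 18 genes with it and 0.05 in the 16 without. After HSC + TBI they were -0.03 and 0.02. These medians are given without a test.

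Several probes or gene copies bear on how closely the values can be tied to 1 gene. Of the 40 genes, 7 had more than 1 tested probe. The probes of Psma6, Psmc4, Psmc6, Psmd1, Psmd2 and Psme4 differed from each other by at most 0.11 in the difference after TBI, and those of Psmd7 by 0.26. For 18 genes RefSeq lists other copies or pseudogenes, 49 in all and 10 of them for Psmb3, and a probe may also bind their transcripts. Psme1 and Psme2 are among these 18, with 3 listed copies each, while Psmf1 and Psmd7 are not.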

How the data were processed

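Liver RNA of 9 rats was labelled with Cy3 and hybridized to one-colour Agilent arrays. Spot intensities came from Feature Extraction 10.7.3.1, per the file headers. The authors normalized them by quantiles, and a log2 value for each probe was deposited per rat. Here the deposited processed signals, with a floor of 1, were log2-transformed and quantile normalized over the 9 arrays, without control spots and outlier spots (84 to 115 of 43379 per array, none saturated), and averaged per probe. The 25369 of 41012 probes that were well above background in all rats of some group were fitted with limma 3.58.1 in R 4.3.3, as 3 group means without covariates, with Benjamini-Hochberg adjustment over all tested probes. A fold is 2 to the power of a log2 difference. RefSeq accessions gave names (GRCr8, 16968 probes). The array files gave no probe sequences, so no position within a gene can be stated.

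Groups came from the sample titles. Named with every rat's value were the 5 genes with the largest difference in each comparison, the catalytic subunits, activators and inhibitor, called genes of the related list and Psmb8 to Psmb10, while Psma2 and the other genes named with a count were picked after their values were seen. Members, lists and motifs were chosen with earlier results of these data known. Marker lists covered hepatocytes, cholangiocytes, macrophages, T and B cells, neutrophils, erythroid, endothelial and stellate cells. Of those not given in the report, Lyve1 (endothelial) rose after TBI by 0.53 (adjusted p = 0.0469), Lrat (stellate) fell by 0.63 (adjusted p = 0.0237), and no cholangiocyte, neutrophil or erythroid marker was called. The script was tested on simulated data. The alternatives tried were other normalizations and background corrections, filters, outlier spots kept, 2-group fits, replicate and slide blocks, the methods' t-test, the mean of a gene's probes and leaving out each rat.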

Additional observations from a re-analysis of the deposited data

How the results depend on the processing

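No gene of the 40 was called in any comparison with the outlier spots kept, with only the compared groups in the fit, with the mean of a gene's probes, or with the replicate block. The replicate numbers matched rats only between control and TBI. There same-numbered rats correlated at 0.191, 0.117 and 0.098, and each rat correlated best with its own number. In the other pairs of groups same-numbered rats correlated at -0.144 to 0.015, and no rat correlated best with its own number. What the match between control and TBI reflects was not tested. With the replicate block, 0 of the 40 genes were called in each comparison, calls over all probes went from 2052, 867 and 203 to 1629, 786 and 97, and Psmb9 passed after HSC + TBI (adjusted p = 0.0409). Counts called are given for TBI and for HSC + TBI, both against control, and then for the irradiated groups against each other. They were 1, 0 and 0 after a 75th percentile shift, in the authors' values, without a filter, and by the methods' t-test with adjusted p. They were 2, 2 and 0 after normexp (1, 1 and 0 at 1.5-fold), 1, 1 and 0 with probes above background on all 9 arrays (all at 1.5-fold), and 3, 7 and 5 by the methods' t-test unadjusted (1, 1 and 0 at 1.5-fold). With the slide as a random block they were 8, 6 and 1 (1, 1 and 0 at 1.5-fold), but its estimated correlation was -0.327, and calls over all probes rose to 11511, 5492 and 4214. The F-test called 2 after normexp, 1 with probes above background everywhere, 12 with the slide block, and 6 (unadjusted) and 1 (adjusted) by analysis of variance. Leaving out 1 rat gave 0 to 1 call for TBI (0 to 1 at 1.5-fold), 0 to 2 for HSC + TBI against control (0 to 2 at 1.5-fold), 0 to 0 between the irradiated groups and 0 to 1 by the F-test, where all calls came without control replicate 1. The medians moved to 0.09, 0.14 and 0.02 after the 75th percentile shift. Leaving out 1 rat gave medians of 0.02 to 0.07 after TBI, -0.03 to 0.03 after HSC + TBI and -0.09 to -0.03 between the irradiated groups. Among the genes named, signs turned in differences of at most 0.24 in size: under the 75th percentile shift Psmb5 between the irradiated groups (0.05) and Psmb7 after TBI (0.01), and under normexp Psmb5 after HSC + TBI (-0.01) and Psmb7 after TBI (0.01). With 1 rat left out, signs turned for Psmb5 (-0.06 to 0.07), Psme3 (-0.02 to 0.17) and Psme4 (-0.09 to 0.15) after HSC + TBI, for Psmb7 (-0.14 to 0.06), Psme4 (-0.01 to 0.26), Psmb9 (-0.51 to 0.10) and Psmb10 (-0.34 to 0.10) after TBI, and for Psme4 between the irradiated groups (-0.20 to 0.00). Other differences of at least 0.2 moved by over 1.5 times with 1 rat left out, among them Psme2 after TBI to between -0.48 and -0.18 and Psmb10 after HSC + TBI to -0.32 without control replicate 2. Under normexp Psme2 after TBI was -0.17, and Psmc3ip was -0.11 after TBI and 0.12 between the irradiated groups. The cause of these shifts was not tested. Gene symbols from the array files could not be tried and were not run. The methods' t-test with adjusted p left Nfe2l2 at 0.0731 and 0.0511. All 40 genes were above background on every array.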
